A study of Mus musculus with 12 samples.

Results

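The intercalated disc joins heart muscle cells end to end, and 10 genes that encode its junction proteins were examined: Gja1 and Gjc1 of gap junctions, Dsp, Jup, Pkp2, Dsc2 and Dsg2 of desmosomes, and Cdh2, Ctnna3 and Tjp1 of adherens junctions and their scaffold. They were found by gene symbol among 45281 probe IDs of the array. In all, 17 probe IDs carried the symbols of 9 of the 10 genes, and since IDs of the same gene held identical values they gave 9 distinct features out of 30854, for 9 of 19013 gene symbols. Dsp had no probe under its symbol in the annotation used and was not analysed here.

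Total RNA from whole hearts of FVB/N females, 1 heart per array and 3 weeks old, was hybridized to 12 expression beadchips. MHC-CELF∆ mice are hemizygous for a transgene in which the α-myosin heavy chain promoter, active in heart muscle cells, drives a nuclear dominant negative CELF protein that represses alternative splicing by the CELF family. The groups were 3 hearts of MHC-CELF∆-10, here the severe line, 3 hearts of MHC-CELF∆-574, here the mild line, and 3 wild type littermates of each line without the transgene, pooled as 6 wild type hearts. Each severity is a single transgenic line, so the severity and anything else particular to that line cannot be told apart. In whole heart RNA, fewer cells of a type and less RNA per cell also cannot be told apart.

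Gap junctions are clusters of connexin channels that pass current and small molecules from cell to cell. Desmosomes tie the desmin filaments of neighbouring cells together through the cadherins desmoglein and desmocollin and the plaque proteins plakoglobin, plakophilin and desmoplakin. Adherens junctions tie the actin filaments of the sarcomeres together through N-cadherin and the catenins. Inherited defects of desmosome genes are a known cause of arrhythmogenic cardiomyopathy.

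Signal differed widely between the features, from Gja1 at the 99.5th percentile of all features to Dsc2 at percentile 9.78, and these ranks describe the probes rather than the transcripts. Y-linked Eif2s3y, Kdm5d and Uty, which female hearts lack, lay between 5.85 and 6.34 on the log2 intensity scale and serve as a floor. On all 12 arrays Gja1, Gjc1, Pkp2, Dsg2, Ctnna3 and Tjp1 were above that floor. Jup, Dsc2 and Cdh2 were not, so a decrease in them may be understated. The median raw intensity was 120 to 123 in the severe line, 106 to 110 in the mild line and 106 to 117 in wild type hearts, before the arrays were put on a common scale. Of the marker lists, 3 of 4 atrial markers were lower in the mild line. Of 7 heart muscle markers, 1 was higher and 2 were lower in the mild line and 2 were lower in the severe line, and their summed intensity, which the brightest probes carry, was 95686 to 102808 in wild type, 98299 to 104222 in mild line and 98690 to 105765 in severe line hearts.

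Of the 9 features, Gja1 and Dsg2 were down-regulated. In the mild line 2 of 9 passed the test (adjusted p under 0.05 in limma), both lower, where 3.55% of all features passed and 1.93% passed as lower. In the severe line 1 of 9 passed, Dsg2, also lower, where 3.3% of all features passed and 1.56% as lower. None of the 9 reached the fold rule of the study's methods, a change of 2-fold or more with adjusted p below 0.05 or unadjusted p below 0.001, which 0.269% of all features met for the mild line and 0.136% for the severe line. The median log2 fold change of the 9 features was -0.042 for the mild line and -0.057 for the severe line. The all-feature medians were 1.8e-05 and -0.00046, which quantile normalization keeps small by design, so the comparison is not a test.

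**Figure D1:**
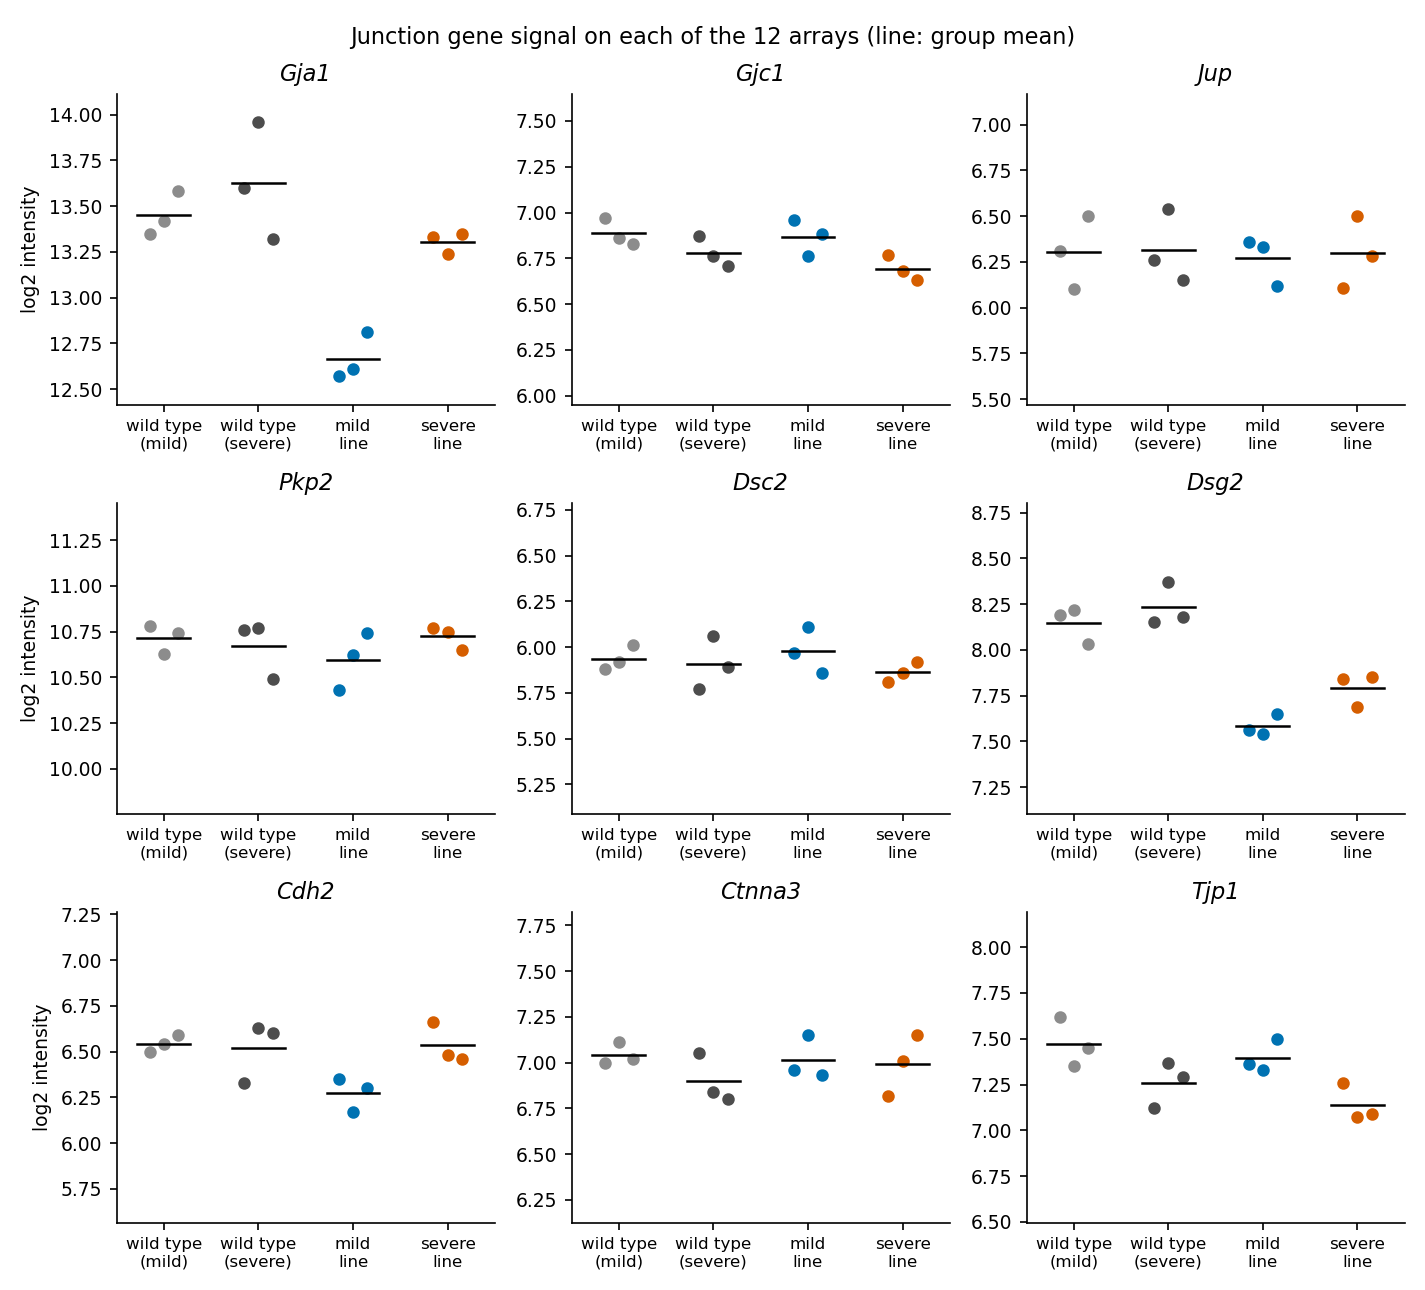
Log2 intensity (y axis) of 9 junction genes on each of the 12 arrays, in wild type littermates of the mild line, wild type littermates of the severe line, the mild line and the severe line (x axis). Points are hearts and lines are means of 3. Each panel spans the same height on the log2 scale. The 3 mild line points for Gja1 (12.57 to 12.81) and Dsg2 (7.54 to 7.65) sit below every wild type point.

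Gja1 encodes connexin Cx43, the main gap junction protein of ventricular muscle. The mild line hearts gave log2 intensities of 12.57, 12.61 and 12.81. The severe line hearts gave 13.33, 13.24 and 13.35. The 6 wild type hearts ranged from 13.32 to 13.96 with a median of 13.50. All 3 mild line hearts were below the lowest wild type heart, whereas the severe line hearts overlapped the bottom of the wild type range. Group means were 12.66 ± 0.13 (SD, n = 3) in the mild line, 13.30 ± 0.059 (SD, n = 3) in the severe line and 13.54 ± 0.24 (SD, n = 6) in wild type. Gja1 was thus down-regulated in the mild line by 0.88 on the log2 scale (log2 fold change -0.88, standard error 0.11, adjusted p = 4.85e-05 from limma), which is 0.545 of the wild type level. In the severe line the log2 fold change was -0.24 (95% confidence interval -0.47 to -0.0052) and did not pass the test (adjusted p = 0.354). Of the 9 features, 2 (Gja1 and Dsg2) did not overlap between mild line and wild type hearts, beside 7.52% of all features, and 1 (Dsg2) did not between severe line and wild type hearts, beside 7.21%.

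The lines differed in Gja1 when compared directly, with the mild line lower than the severe line by 0.64 on the log2 scale (log2 difference -0.64, standard error 0.13, adjusted p = 0.013), where 1.37% of all features passed, and Gja1 was the 1 junction feature of 9 that did. Leaving out any of 4 hearts ended that call: severe line replicate 1 gave -0.63 (adjusted p = 0.0647), severe line replicate 3 gave -0.62 (0.0514), mild line replicate 1 gave -0.60 (0.0654) and mild line replicate 2 gave -0.62 (0.057). With each line set against its own 3 littermates, the mild line log2 fold change of Gja1 was -0.79 (adjusted p = 0.000798) and the severe line one -0.32 (adjusted p = 0.246). The difference between them was -0.47 (95% confidence interval -0.83 to -0.10, adjusted p = 0.521). In that comparison 0 of 9 junction features passed (2 at an unadjusted p under 0.05), where 0.266% of all features passed. The 2 sets of littermates themselves gave 0 of 9 passing features (1 at an unadjusted p under 0.05, Tjp1), where 0.0875% of all features passed.

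Markers of the atria other than Nppa moved with Gja1. The summed intensity of Myl7, Myl4, Sln and Nppa was 69754 to 76606 in wild type, 55067 to 60898 in mild line and 68889 to 71581 in severe line hearts, with none of the 4 in the floor range. Nppa and Myl4, the brightest, carried most of that sum. A dimmer Myl4 feature, not in the sum, passed in neither line (-0.14 in the mild and -0.25 in the severe line). Nppa was at percentile 100 of signal, where a change may not show. The 4 smooth muscle markers summed to 5217 to 7584 in wild type, 4356 to 4560 in mild line and 8485 to 11423 in severe line hearts. Acta2 carried most of that sum, at a wild type mean log2 intensity of 12.58, beside 7.31 for Myh11 and 6.30 for Tagln. Its littermates differed too, at 12.27 to 12.41 for the mild line and 12.79 to 12.83 for the severe line. Among them Acta2, the gene of smooth muscle actin, had -0.56 in the mild line (adjusted p = 0.0156) and 0.61 in the severe line (adjusted p = 0.00818). The mild line call of Acta2 was lost with own littermates (-0.32, adjusted p = 0.108) and on leaving out mild line replicate 1 (-0.53, 0.0808), 2 (-0.57, 0.0674) or 3 (-0.56, 0.0665), and the severe line call without severe line replicate 3 (0.50, 0.0786). A dimmer Acta2 feature, at a wild type mean of 5.98 in the floor range, passed in neither line (-0.040 and -0.0078). Tagln, the gene of transgelin, had 0.13 (adjusted p = 0.623) and 0.70 (adjusted p = 6.31e-05). Myh11, the smooth muscle myosin gene, passed in neither line (0.092 and 0.038), and Cnn1 lay in the floor range. The part of either list in the result was not tested. Myl7, an atrial myosin light chain gene, had a log2 fold change of -1.84 for mild line hearts (adjusted p = 2.12e-07) and of -0.41 for severe line hearts (adjusted p = 0.175), while Nppa, the gene of atrial natriuretic peptide, had 0.054 (adjusted p = 0.822) and 0.0081 (adjusted p = 0.979). The 6 endothelial markers, of which none passed in either line, summed to 2542 to 3448 in wild type, 2709 to 2979 in mild line and 2749 to 2813 in severe line hearts.

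As the junction gene with the largest change, Gja1 is shown with its promoter, the 250 bases before its annotated start in RefSeq on GRCm38.p6, chr10:56377050-56377299, plus strand, read 5′ to 3′. The capitals mark a match to the AP-1 site TGANTCA, from 19 to 13 bases before the start, a motif chosen after the values were seen.
Gja1: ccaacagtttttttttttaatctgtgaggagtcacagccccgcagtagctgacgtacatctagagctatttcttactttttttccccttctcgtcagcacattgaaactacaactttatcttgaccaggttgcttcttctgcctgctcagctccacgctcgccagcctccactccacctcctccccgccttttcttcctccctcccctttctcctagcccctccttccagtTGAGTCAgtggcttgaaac
Promoter windows, which run from 250 bases before to 50 bases after a start, were at hand for 5 of the 10 genes (Gja1, Dsp, Jup, Ctnna3 and Tjp1), in 7 windows. On both strands the AP-1 site was in 1 of these 7, beside 7.81% of 32851 windows of the mouse table. The CArG box bound by serum response factor was in 0 of 7, beside 1.63%, and the MEF2 box in 0 of 7, beside 0.557%. The AP-1 match is the only match of the searched motifs in the printed sequence, and a match in letters is not a measured binding site.

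Dsg2 encodes desmoglein 2, the desmosomal cadherin of heart muscle, and was down-regulated in both lines. The 3 mild line hearts gave log2 intensities of 7.56, 7.54 and 7.65. The 3 severe line hearts gave 7.84, 7.69 and 7.85, and the 6 wild type hearts ranged from 8.03 to 8.37 with a median of 8.19. No heart of either line reached the wild type range. Means were 7.58 ± 0.054 (SD, n = 3), 7.80 ± 0.090 (SD, n = 3) and 8.19 ± 0.11 (SD, n = 6) in the mild line, the severe line and wild type. Dsg2 intensity fell by 34.2% in the mild line (log2 fold change -0.60, standard error 0.074, adjusted p = 3.85e-05 from limma). It fell by 23.9% in the severe line (log2 fold change -0.39, standard error 0.074, adjusted p = 0.00423). These percentages are of intensities that include the background offset of 50, so the loss of transcript may be understated. With an offset of 16 the mild line log2 fold change was -0.71. The difference of -0.21 between the mild and severe lines did not pass the test (95% confidence interval -0.39 to -0.032, adjusted p = 0.3). Against their own littermates the log2 fold changes were -0.56 (adjusted p = 0.00061) and -0.44 (adjusted p = 0.00751).

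Passing as lower in both lines, as Dsg2 did, were 2 of 7 heart muscle markers, Ryr2 and Pln, and 1 of 4 skeletal muscle markers, Tnni2. The heart muscle markers Myh6, Tnni3, Actc1 and Myl3 passed in neither line (mild line -0.11, 0.28, 0.21 and -0.055). Actn2 was higher in the mild line (0.27, adjusted p = 0.0412). Ryr2, the gene of the calcium release channel of heart muscle, had log2 fold changes of -1.11 (adjusted p = 3.95e-07) for the mild and -0.49 (adjusted p = 0.00412) for the severe line, while its dimmer feature had -0.026 and -0.22 and did not pass. Pln, which encodes phospholamban, an inhibitor of the calcium pump, had -1.09 (adjusted p = 2.72e-05) and -0.68 (adjusted p = 0.00479), the latter not passing without severe line replicate 1 (-0.58, adjusted p = 0.0578). Tnni2, a troponin gene of skeletal muscle, had -0.59 (adjusted p = 0.0164) and -0.53 (adjusted p = 0.035). The mild line call of Tnni2 was lost with own littermates (-0.42, 0.161) and without mild line replicate 2 (-0.49, 0.155) or 3 (-0.57, 0.0827). Its severe line call was lost on leaving out any of 4 arrays: severe line replicates 1 (-0.56, 0.115) and 3 (-0.39, 0.232) and replicate 2 of the severe line littermates (-0.49, 0.0604) or mild line littermates (-0.55, 0.0524). The skeletal muscle markers Myh1, Myh4 and Mylpf reached into the floor range and passed in neither line (mild line -0.051, 0.0018 and 0.086). Of 7 fibroblast markers 1 passed, the collagen gene Col1a1, higher in severe line hearts (0.48, adjusted p = 0.0114), a call lost without severe line replicate 1 (0.42, 0.106) or 2 (0.46, 0.0516). The part of these markers in the Gja1 and Dsg2 results was not tested.

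**Figure D2:**
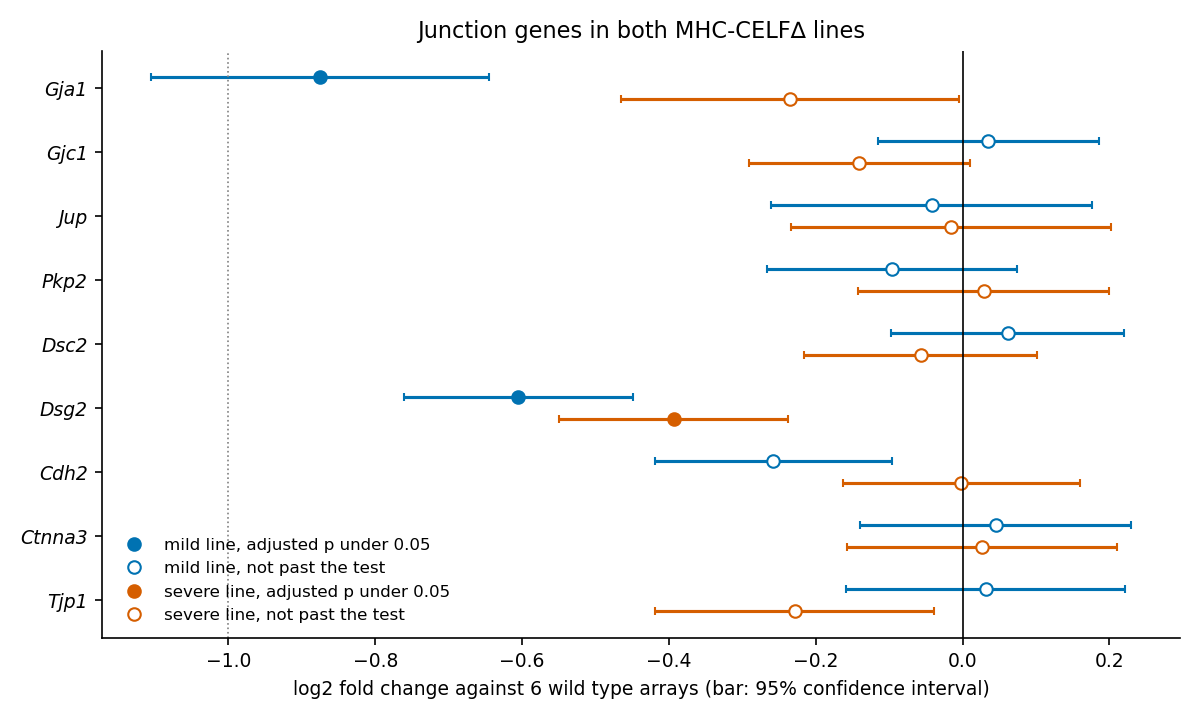
Log2 fold change of 9 junction genes (x axis) in the mild and severe lines against 6 wild type hearts, with bars for the 95% confidence interval, filled points for an adjusted p under 0.05 and a dotted line at a 2-fold decrease. Filled points are Gja1 in the mild line (-0.88) and Dsg2 in both lines (-0.60 and -0.39); every other point is open.

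No other desmosome gene of the examined set passed the test, and Dsp was not measured. The intervals give the precision of the probe signal. For Jup and Dsc2 that signal reached into the floor range, so their intervals do not bound a change in transcript. Pkp2 encodes plakophilin 2, an armadillo protein of the desmosomal plaque, and its log2 intensity was 10.43, 10.62 and 10.74 in the mild line, 10.77, 10.75 and 10.65 in severe line hearts and 10.49 to 10.78 in wild type. The groups overlapped, with log2 fold changes of -0.096 for the mild line (95% confidence interval -0.27 to 0.075, adjusted p = 0.738) and 0.029 for the severe line (-0.14 to 0.20, adjusted p = 0.934). Jup encodes plakoglobin, a catenin of desmosomes and adherens junctions. Its hearts overlapped, at 6.12 to 6.36 in the mild line, 6.11 to 6.50 in the severe line and 6.10 to 6.54 in wild type, with log2 fold changes of -0.042 for the mild line (95% confidence interval -0.26 to 0.18, adjusted p = 0.933) and -0.016 for the severe line (-0.23 to 0.20, adjusted p = 0.975). Dsc2 encodes the desmosomal cadherin desmocollin 2 and gave overlapping log2 intensities of 5.86 to 6.11, 5.81 to 5.92 and 5.77 to 6.06 in the mild line, the severe line and wild type, none of them above the floor. Its log2 fold changes were 0.062 (-0.097 to 0.22, adjusted p = 0.844) and -0.057 (-0.22 to 0.10, adjusted p = 0.834).

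Cdh2 encodes N-cadherin, the adherens junction cadherin of heart muscle. Its log2 intensity was 6.35, 6.17 and 6.30 in mild line hearts, 6.66, 6.48 and 6.46 in severe line hearts and 6.33 to 6.63 in wild type, so that 2 of the 3 mild line hearts lay below the wild type range. The mild line log2 fold change of -0.26 (95% confidence interval -0.42 to -0.096) did not pass the test (adjusted p = 0.0822), although it did without severe line littermates replicate 1 (-0.30, adjusted p = 0.0257). Cdh2 signal reached into the floor range, so its intervals do not bound a change in transcript. With a background offset of 16 the mild line value was -0.43 (adjusted p = 0.109). The severe line value was -0.0019 (95% confidence interval -0.16 to 0.16, adjusted p = 0.997). The difference of -0.26 between the mild and severe lines did not pass (adjusted p = 0.203).

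Ctnna3 and Tjp1 did not pass in either line. Ctnna3 encodes αT-catenin, which links cadherins to actin and binds plakophilin 2. It gave overlapping log2 intensities of 6.93 to 7.15, 6.82 to 7.15 and 6.80 to 7.11 in the mild line, the severe line and wild type, and its log2 fold changes were 0.045 for the mild line (95% confidence interval -0.14 to 0.23, adjusted p = 0.912) and 0.027 for the severe line (-0.16 to 0.21, adjusted p = 0.943). Tjp1 encodes ZO-1, the scaffold that binds Cx43 at the edge of gap junctions. Its log2 intensity was 7.36, 7.33 and 7.50 in the mild line, 7.26, 7.07 and 7.09 in severe line hearts and 7.12 to 7.62 in wild type. Of the 3 severe line hearts 2 lay below the wild type range, with a log2 fold change of -0.23 (95% confidence interval -0.42 to -0.038) that did not pass the test (adjusted p = 0.239). The 2 sets of wild type littermates differed by 0.22 in Tjp1, also without passing (adjusted p = 0.445).

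Gjc1 encodes connexin Cx45, a channel protein of the early heart and the conduction system. Hearts gave log2 intensities of 6.96, 6.76 and 6.88 in the mild line, 6.77, 6.68 and 6.63 in severe line hearts and 6.71 to 6.97 in wild type, with 2 of the 3 severe line hearts below the wild type range. The log2 fold changes were 0.035 for the mild line (95% confidence interval -0.12 to 0.19, adjusted p = 0.919) and -0.14 for the severe line (-0.29 to 0.010, adjusted p = 0.418).

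Spread between hearts of a group differed among the junction genes. The pooled within-group SD on the log2 scale ran from 0.082 for Gjc1 to 0.18 for Gja1 and 0.18 for Jup, beside a median of 0.11 over all features. The highest Gja1 value was 13.96 in severe line littermates replicate 2, and without that heart the mild line log2 fold change was -0.79 (adjusted p = 1.06e-05).

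**Figure D3:**
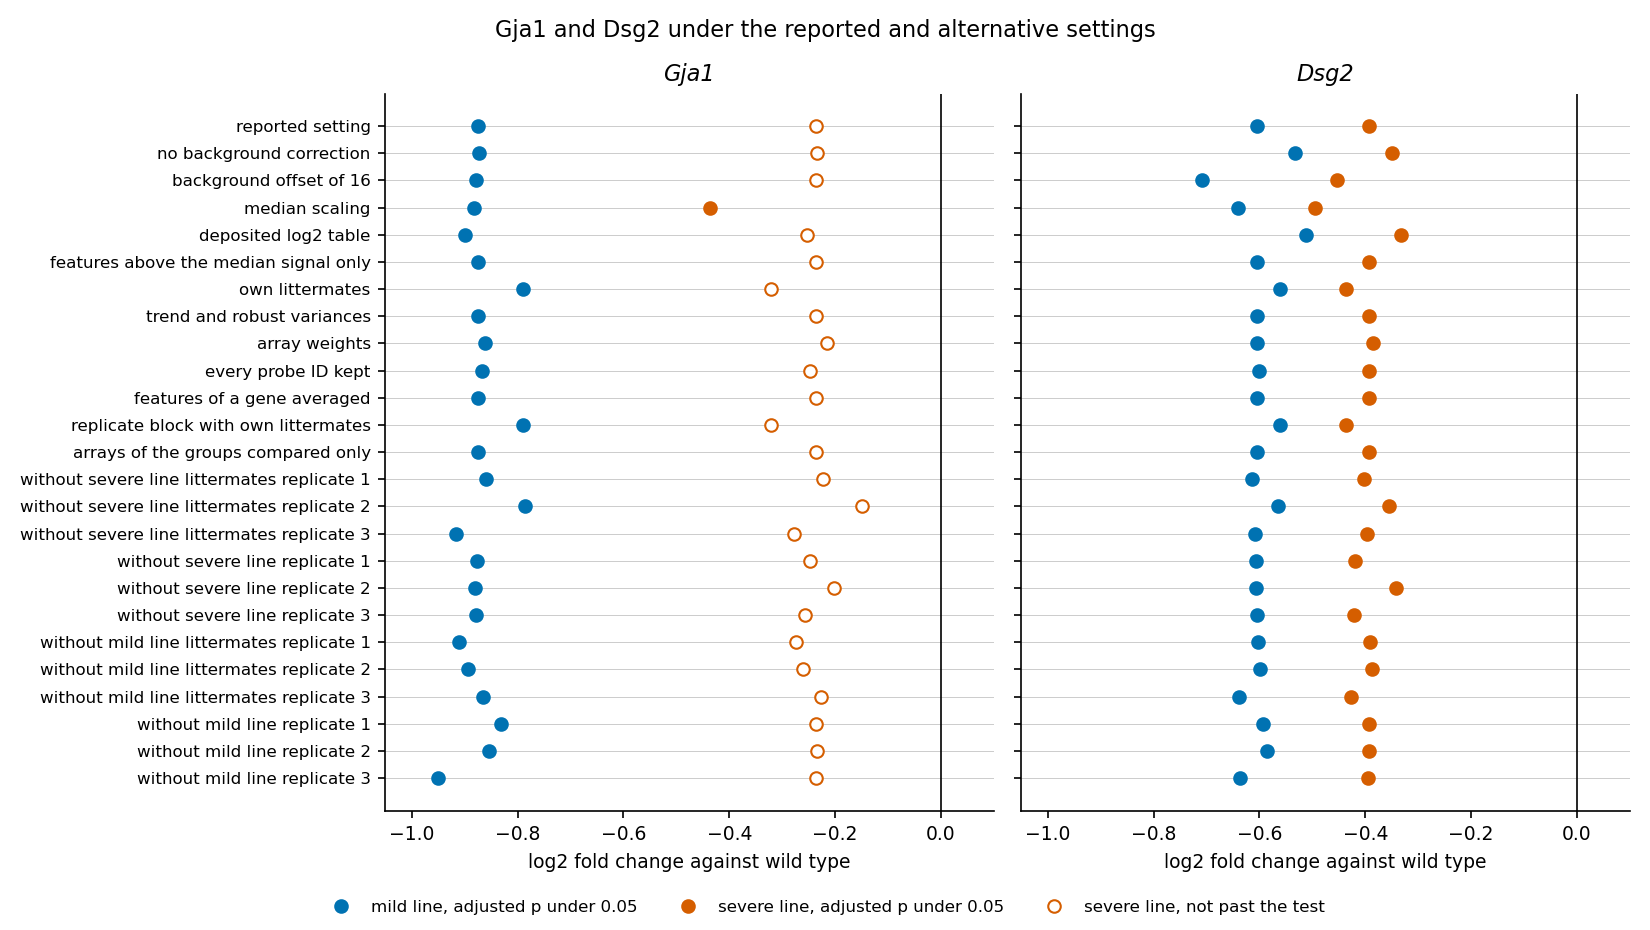
Log2 fold change of Gja1 and Dsg2 against wild type (x axis) in both lines under the reported setting and 24 alternatives (y axis), with filled points for an adjusted p under 0.05. Gja1 in the mild line ran from -0.95 to -0.79 and Dsg2 from -0.71 to -0.51 in the mild line and -0.49 to -0.33 in the severe line, all filled; Gja1 in the severe line is filled with median scaling alone.

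Both decreases in the mild line and the Dsg2 decrease in the severe line passed the test in 24 of 24 alternative settings, as the plot of settings shows, with adjusted p-values up to 0.00207 for Gja1 in the mild line and up to 0.0067 and 0.0398 for Dsg2 in the mild and severe lines. Gja1 in the severe line passed in 1 of 24, median scaling of the arrays (-0.44, adjusted p = 0.0494). That line had the higher raw intensities, whose part in this value was not tested.

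Genes with a pattern over the 12 arrays most like that of Gja1 were Ccng1, which encodes cyclin G1 (Pearson r = 0.966, Spearman rho = 0.902), and Farp2, a guanine nucleotide exchange factor gene (0.955 and 0.888). Ccng1 had log2 fold changes of -0.81 for the mild line and -0.20 for the severe line. The most similar to Dsg2 were Lrrc14b (0.965 and 0.916) and Ift81, a gene of intraflagellar transport (0.965 and 0.916). Ift81 had log2 fold changes of -1.44 for the mild line and -0.99 for the severe line. These correlations describe arrays that share their group means, over features above the median signal, and carry no test.

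To place the junction genes, 5 lists of other junction genes were examined, 58 genes of which 54 had a feature. In the mild line 4 were higher and 6 lower, 18.5% of 54 beside 3.55% of all features. In the severe line 5 were higher and 1 lower, 11.1% beside 3.3%. The median log2 fold changes of 0.035 and 0.044 were close to 0. The lists were chosen with earlier results of these data known, so their shares beside those of all features are not a test. All features also include many dim ones, and the lists hold some in the floor range, where a change may not show. With only features above the median signal fitted, 1226 passed for the mild line and 1165 for the severe line. Those counts came from fewer features than the 1096 and 1019 over all, so the shares passing there were above 3.55% and 3.3%.

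Among the other connexins and pannexins, 1 of 7 was lower in the mild line and 1 of 7 higher in the severe line. Gja3, Gjb2 and Gjb6 had wild type means of 6.034, 6.076 and 5.855, in the floor range, where a change may not show. Gja5 encodes connexin Cx40, the connexin of atrial and conduction cells. Its log2 intensity was 6.87, 7.00 and 6.88 in mild line hearts, 7.84, 8.07 and 7.68 in severe line hearts and 7.66 to 8.55 in wild type hearts. The mild line lay below all other hearts at a log2 fold change of -1.03 (adjusted p = 0.00014), against -0.086 for the severe line (adjusted p = 0.876), alongside the atrial sums given for Gja1. The littermates of the lines did not overlap in Gja5, at 7.66 to 7.84 for the mild line and 7.86 to 8.55 for the severe line. Over the alternative settings the mild line value ran from -1.30 to -0.83 and passed in each. The direct difference was -0.95 (adjusted p = 0.00502) and, with own littermates, -0.54 (adjusted p = 0.488). Panx1 encodes pannexin 1, a channel of the cell membrane that releases ATP, and it was up-regulated in the severe line. Severe line hearts gave 7.42, 7.18 and 7.49, with 6.66, 6.76 and 6.75 in the mild line and 6.48 to 6.71 in wild type. The log2 fold changes were 0.75 in the severe line (standard error 0.077, adjusted p = 8.88e-06) and 0.11 for the mild line (adjusted p = 0.659), and the lines differed both directly (-0.64, adjusted p = 0.000474) and with own littermates (-0.70, adjusted p = 0.0187). The smooth muscle sums given for Gja1, carried mostly by Acta2, were also highest in the severe line. Their part in the Panx1 result was not tested.

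Of the 10 other desmosome genes 1 passed, Des, the gene of desmin, the intermediate filament that desmosomes anchor. Log2 intensities were 13.68, 13.89 and 13.78 in the mild line, 13.76, 13.48 and 13.50 in severe line hearts and 12.74 to 13.19 in wild type. Both lines lay above wild type without overlap, with log2 fold changes of 0.89 (standard error 0.094, adjusted p = 8.05e-06) and 0.69 (standard error 0.094, adjusted p = 0.000207). Dsc1, Dsc3, Dsg1a, Dsg3, Pkp3 and Evpl had wild type means of 5.98 to 6.32, in the floor range, where a change may not show.

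Of 16 other cadherin, catenin and linker genes 3 were lower in mild line hearts and 1 in severe line hearts. Ctnnal1, which encodes the catenin relative α-catulin, had log2 fold changes of -0.53 for the mild line (adjusted p = 0.000225) and -0.26 for the severe line (adjusted p = 0.0833, or 0.0105 without severe line littermates replicate 1 at -0.31), while its dimmer feature had -0.0074 and -0.17 and passed in neither. Lmo7, which encodes a LIM domain protein of adherens junctions, had -0.51 (adjusted p = 0.0011) and -0.42 (adjusted p = 0.00735), the latter not passing without severe line replicate 1 (-0.35, adjusted p = 0.0896). Ctnna1, which encodes αE-catenin, had -0.37 in the mild line (adjusted p = 0.00224) and -0.019 for the severe line (adjusted p = 0.95). The lines differed in Ctnna1 by -0.36 (adjusted p = 0.0272), a call that ended without any 1 of the 6 transgenic hearts (up to an adjusted p of 0.12, from -0.38 to -0.32) and with own littermates (-0.29, adjusted p = 0.55).

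Of 13 other disc proteins 3 were higher in each line and 1 was lower in the mild line. Xirp2, which encodes an actin-binding Xin repeat protein of the disc, rose in both lines. Log2 intensities were 9.70, 10.12 and 9.96 in the mild line, 9.37, 9.15 and 9.39 in severe line hearts and 8.36 to 8.87 in wild type. The log2 fold changes were 1.21 for the mild line (standard error 0.11, adjusted p = 9.3e-07) and 0.58 for the severe line (standard error 0.11, adjusted p = 0.00369). The difference of 0.62 (adjusted p = 0.0142) was lost on leaving out severe line replicate 2 (0.55, adjusted p = 0.0748), mild line replicate 2 (0.53, 0.0854) or mild line replicate 3 (0.61, 0.0736).

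Ilk, which encodes integrin-linked kinase, had log2 fold changes of 0.45 in the severe line (adjusted p = 0.00633, or 0.0558 without severe line replicate 1 at 0.42) and 0.13 in the mild line (adjusted p = 0.643). Tmem43, named after its value was seen to complete the count, had 0.28 in the severe line (adjusted p = 0.0294). Tmem65, which encodes a membrane protein of the disc, had -0.35 in the mild line (adjusted p = 0.0104), with its dimmer feature at -0.31 (adjusted p = 0.00619). Leaving out mild line replicate 1 (-0.33, adjusted p = 0.0658) or mild line replicate 3 (-0.33, adjusted p = 0.0665) ended that call. Nrap, a gene of actin anchoring, had 0.40 in the mild line (adjusted p = 0.0456), and Actn2, the gene of α-actinin and a heart muscle marker too, had 0.27 (adjusted p = 0.0412). The dimmer Actn2 feature passed in neither line (0.15 in the mild line, adjusted p = 0.582, and -0.044 in the severe line). The Nrap and Actn2 calls were each lost on leaving out any of 8 of the 12 arrays. Adjusted p-values then ran up to 0.185 for Nrap (0.33 to 0.45) and 0.3 for Actn2 (0.21 to 0.33).

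Of 8 genes that traffic or turn over Cx43, 1 passed, Cav3, the gene of the muscle caveolin, at -0.36 in the mild line (adjusted p = 0.0432). The call was lost on leaving out any of 7 of the 12 arrays (-0.47 to -0.28, adjusted p up to 0.294).

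**Figure D4:**
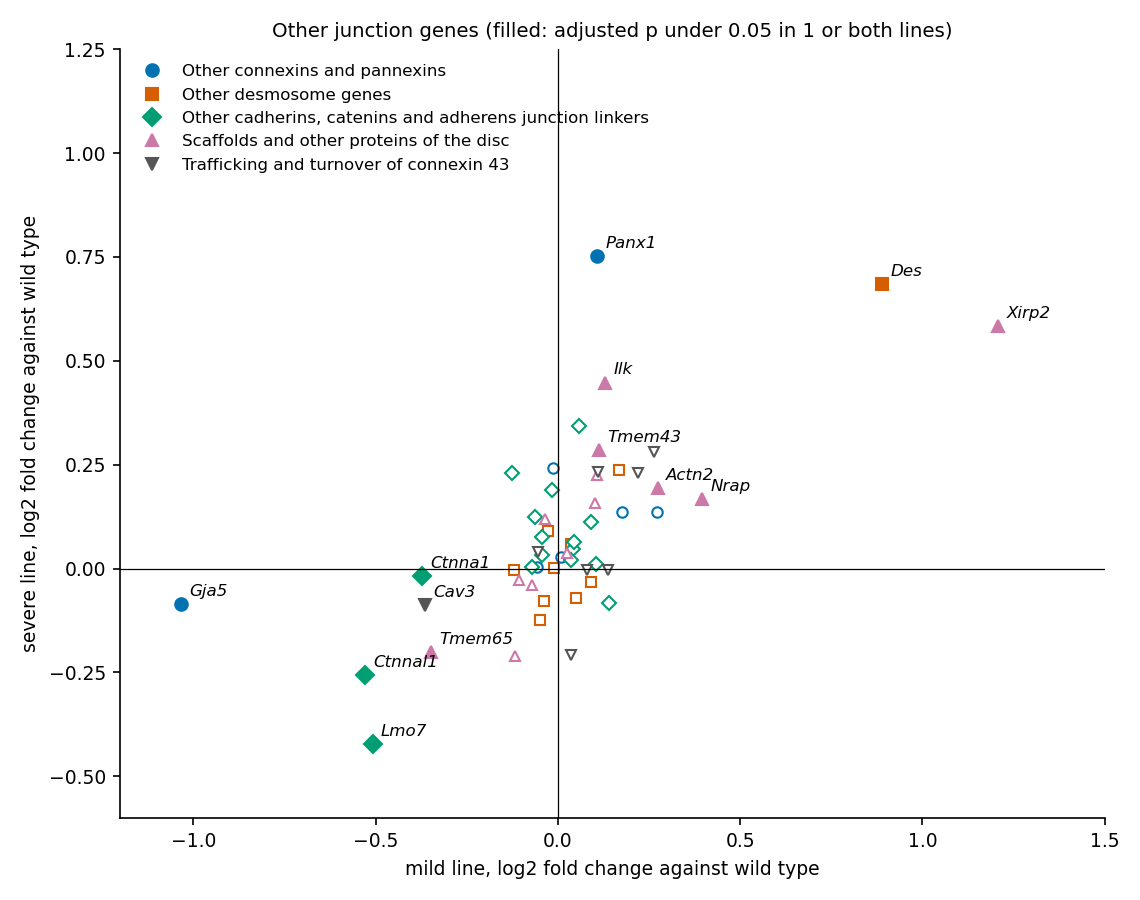
Log2 fold change against wild type in the mild line (x axis) and the severe line (y axis) for 54 other junction genes in 5 lists (marker shapes), filled where the adjusted p is under 0.05 in at least 1 line. Both comparisons share the same 6 wild type hearts; Gja5 lies at -1.03 in the mild line, Panx1 at 0.75 in the severe line, and Des and Xirp2 lie high in both.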

How the data were processed

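Total RNA of 12 hearts was measured on Illumina MouseWG-6 beadchips. The authors' deposited raw files give a summarized bead intensity for each probe ID, with no detection p-values. The submitters' processing notes name GenomeStudio and limma, without versions, and background subtraction at export is not given in the sources used here. The deposited value table of the authors holds log2 intensities, background corrected and quantile normalized, and was used as an alternative.

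In R 4.3.3 with limma 3.58.1, raw intensities were background corrected by normexp (offset 50), quantile normalized and log2 transformed. Probe IDs with identical values were merged into 30854 features, so probes of a gene that share values cannot be told apart. A gene with several features was led by its brightest. Of 45281 IDs, 34885 had 1 symbol, 18 several and 10378 none. From 3 arrays, 6 lines lacking an ID were dropped.

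Wild type, mild and severe means were fitted with empirical Bayes variances, and the 4 groups for comparisons with littermates. Benjamini-Hochberg adjustment ran over all features, and the adjusted p-values in the text are from limma. Precision is limited by the number of arrays. The fit was tested on simulated data. Named were all junction genes, up to 4 called genes of each other list by size of change, and the 2 features most correlated with each called junction gene. The genes and lists were chosen with earlier results of these data known. Alternatives changed background, scaling, controls, variance model, arrays and calling rule.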

Additional observations from a re-analysis of the deposited data

Results flagged for a closer look

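Values that stood apart from the other 5 wild type hearts were seen in 4 of 30 sets of 6 wild type values checked, where chance alone gives about 1 in 20. Myl7 was at 12.11 in severe line littermates replicate 3, with the others at 12.49 to 12.64, and Lmo7 at 8.58 in the same heart, with the others at 8.82 to 8.94. Myl4 was at 14.89 in severe line littermates replicate 2, with the others at 14.58 to 14.67. Ctnnal1 was at 9.71 in severe line littermates replicate 1, with the others at 9.96 to 10.08.

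The mild and severe lines differed, by the direct test in limma, in 11 of the named genes, of which 6 did not pass when each line was set against its own littermates. Lower in the mild line were Gja1 (-0.64, adjusted p = 0.013), Gja5 (-0.95, adjusted p = 0.00502), Panx1 (-0.64, adjusted p = 0.000474) and Ctnna1 (-0.36, adjusted p = 0.0272). Xirp2 was higher in the mild line (0.62, adjusted p = 0.0142). Among markers, the atrial genes Sln (-1.52, adjusted p = 1.46e-05), Myl7 (-1.44, adjusted p = 8.74e-05) and Myl4 (-0.65, adjusted p = 0.00142) were lower in the mild line. So were the smooth muscle genes Acta2 (-1.17, adjusted p = 0.000172) and Tagln (-0.57, adjusted p = 0.00497), and Ryr2, the calcium release channel of heart muscle (-0.62, adjusted p = 0.00497). With own littermates, Panx1 (adjusted p = 0.0187), Sln (0.00293), Myl7 (0.00293), Ryr2 (0.00113) and Acta2 (0.0289) still passed.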

How the results depend on the processing

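No value that passed the test reversed its direction. Over the alternatives, the log2 fold changes of the junction genes kept their direction and side of the threshold or stayed within the replicate spread in 614 cases, lost a call in 6, gained one in 3 and moved in 4, beside 1363, 96, 2 and 9 for the other named genes. Junction features passing numbered 2 for the mild line and 1 for the severe line, and 0 in both under the fold rule of the methods. In the severe line it was 2 with median scaling and 3 at an unadjusted p under 0.05. For the mild against the severe line the count of 1 became 0 with a background offset of 16, with median scaling and under the fold rule, and 5 at an unadjusted p under 0.05. Littermates and the difference with own littermates went from 0 to 1 and from 0 to 2 at that unadjusted threshold. Leaving out each array gave 2 to 3 for the mild line, 1 to 1 for the severe line, 0 to 1 between the lines, and 0 to 0 in the other 2 comparisons. Of the junction genes, Gja1 between the lines had an adjusted p of 0.0831 with the offset of 16 (-0.64) and 0.155 with median scaling (-0.45), and Cdh2 in the mild line passed with array weights (-0.27, adjusted p = 0.0406).

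Replicate numbers gave no sign of pairing the hearts: of 6 pairs, 0 correlated over 0.1 (from -0.36 to 0.097), and 1 of 6 correlated best with its own number. With so few hearts per group, each centred on its group mean, this check cannot show whether the numbers denote pairs. A fit with the replicate number as a block and own littermates gave 621 passing features for the mild line and 534 for the severe line, against 1096 and 1019. In it Gja1 had -0.79 in the mild line (adjusted p = 0.00207), and Dsg2 had -0.56 (adjusted p = 0.0067) and -0.44 (adjusted p = 0.0398). Ctnna1 and Tmem65 in the mild line and Lmo7 and Ilk in the severe line lost their calls in it (adjusted p = 0.0647, 0.0778, 0.1 and 0.079).

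Xirp2 and Ilk in the severe line lost theirs with median scaling (adjusted p = 0.0729 and 0.0678), and Tmem65 there gained one (-0.38, adjusted p = 0.0459). Between the lines, Myl4 and Ryr2 lost their calls with median scaling (adjusted p = 0.103 and 0.0704) and with features of a gene averaged (0.187 and 0.238), Ctnna1 with median scaling and the offset of 16 (0.556 and 0.183) and Xirp2 with that offset (0.0886). Dim signal limits Jup, Dsc2 and Cdh2, and Dsc2 was left out by the filter on signal, so no value was had there. The causes of these changes were not tested.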
